A study of Mus musculus with 4 samples.

Results

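The comparison described here set 2 arrays of mouse SVEC4-10 cells that carried a short hairpin RNA against 2 arrays of the same cells that carried none. A gene was counted when both hairpin arrays lay on the same side of both control arrays with a gap of at least 1 on the log2 scale, which is 2-fold, between the nearest hairpin and control levels. Its highest level also had to reach 5.41, the median of the whole value table, called the floor below. Each gene was represented by the probe set (a group of short oligonucleotides that reads 1 transcript region) with the highest mean, among probe sets with a single gene symbol. Of 18193 genes, 12166 reached the floor, and 51 of these were counted. There were 10 genes higher on both hairpin arrays and 41 genes lower on both.

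SVEC4-10 is an SV40-transformed endothelial line from the vessels of mouse lymph nodes. The untreated array held wild type cells with no vector. The vector array held cells transduced with the pLENTI6/Block-iT lentiviral vector without an insert. The arrays labelled Mical2 and Mical3 held cells transduced with the same vector carrying a hairpin against the named gene. All transduced cells had been selected with blasticidin, so the untreated cells differ from the other 3 groups by vector and by selection. The RNA on each of the arrays came from a pool of 3 biological replicates. There was 1 array per group, so each side of the comparison is a pair of unlike arrays and not a replicated group. Precision is limited by this number of arrays, and the spread between cultures cannot be seen.

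MICAL proteins are flavin-dependent oxidases that bind actin filaments, oxidise methionines in them and so take the filaments apart. Actin state also controls the MRTF cofactors, which enter the nucleus when free actin is scarce and switch on genes with the factor SRF. A short hairpin RNA is cut by Dicer into a small duplex, and 1 of its strands then guides an Argonaute protein to matching transcripts. Partial matches over the first bases of the guide, its seed, can lower other transcripts as well.

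The pair of hairpins is shown because shared sequence is among the things that the hairpin side has in common beyond the vector. Capitals mark the paired stem arms, and the lower case run between them is the loop.
Mical2 hairpin: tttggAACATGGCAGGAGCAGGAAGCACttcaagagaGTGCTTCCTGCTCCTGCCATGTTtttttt
Mical3 hairpin: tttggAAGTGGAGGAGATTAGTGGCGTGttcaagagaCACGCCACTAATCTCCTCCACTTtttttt
Both have stems of 23 bases, the same 9-base loop and the same flanks. Their antisense arms, the strands complementary to the targets, are printed next with bases 2 to 8 in capitals, counted from the first base after the loop.
Mical2 antisense arm: gTGCTTCCtgctcctgccatgtt
Mical3 antisense arm: cACGCCACtaatctcctccactt
The antisense arms carried the same base at 7 of 23 positions (30.4%), and their longest shared run was 5 bases, CTCCT. Their seeds, TGCTTCC and ACGCCAC, were different. Among 1679 mature mouse miRNAs in the RefSeq table, 1 carried the seed of the Mical2 arm (mmu-miR-6943-3p) and 0 carried that of the Mical3 arm. Where Dicer cut these hairpins, and where seed matches lie in other transcripts, was not analysed here.

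Levels below are log2 expression levels. Control levels are given in the order untreated, vector, and hairpin levels in the order array labelled Mical2, array labelled Mical3. The targeted genes were read first, as a check of the labels. The probe sets of Mical2 read 5.33 and 4.64 on the controls against 5.53 and 6.0 on the hairpin arrays, and 5.60 and 5.14 against 5.53 and 6.08. Mical3 read 7.39 and 7.29 on the controls and 6.83 and 7.24 on the hairpin arrays. Neither transcript was reduced 2-fold on its own hairpin's array. The Mical2 levels lay near or below the floor, where differences in microarray signal are compressed, so they cannot show whether Mical2 was reduced. Mical3, above the floor, read 7.24 on its own hairpin's array, just below both controls, and 6.83 on the array labelled Mical2. The transcript levels thus do not settle whether the labels hold. The hairpin arrays are therefore named by label, and every direction below is a difference between labelled arrays.

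The array medians lay between 5.40 and 5.44. The quantile normalization within RMA makes them nearly equal, so they cannot show whether an array stands apart. Of 36 listed endothelial genes, 19 lay below the floor on every array, among them the defining markers Pecam1 (3.46 to 3.88) and Cdh5 (3.95 to 4.5). Flt1 (7.70 to 7.76) and Ets1 (9.94 to 10.42) were well above it. Of 17 lymphatic genes 11 lay below the floor everywhere, including Prox1 and Lyve1. The untransformed levels summed over the endothelial list were 5257.6, 5115.8, 5502.1 and 5254 on the untreated, vector, Mical2 and Mical3 arrays. Such a sum is led by its brightest genes, here Tjp1 (10.39 to 11.24) and Ets1, so near-equal sums do not show that each marker was equal. Cd34 read 4.29 and 3.76 on the controls and 10.02 and 3.93 on the hairpin arrays, so it was high on the array labelled Mical2 only. In such bulk RNA, fewer cells of a type and less RNA per cell cannot be told apart.

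The 10 genes higher on both hairpin arrays made up 0.0822% of the genes at the floor, and the 41 lower genes 0.337%, together 0.419%. Among all genes at the floor, 17.6% had both hairpin arrays above both controls by any amount, and 21.2% had both below. Taken alone against both controls by the same size rule, 2.73% of the 12072 genes that reached the floor for the array labelled Mical2 were called, and 3.87% of 12011 for the array labelled Mical3. The 10 higher genes were 8.47% of the 118 genes called higher on the array labelled Mical2 and 6.02% of the 166 called higher on the array labelled Mical3. The 41 lower genes were 19.4% of 211 and 13.7% of 299 called lower. Both calls use the same pair of control arrays, so nothing is read from these shares. In the other arrangement, 16 genes were called higher with the Mical2 label but lower with the Mical3 label, and 4 the reverse.

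**Figure D1:**
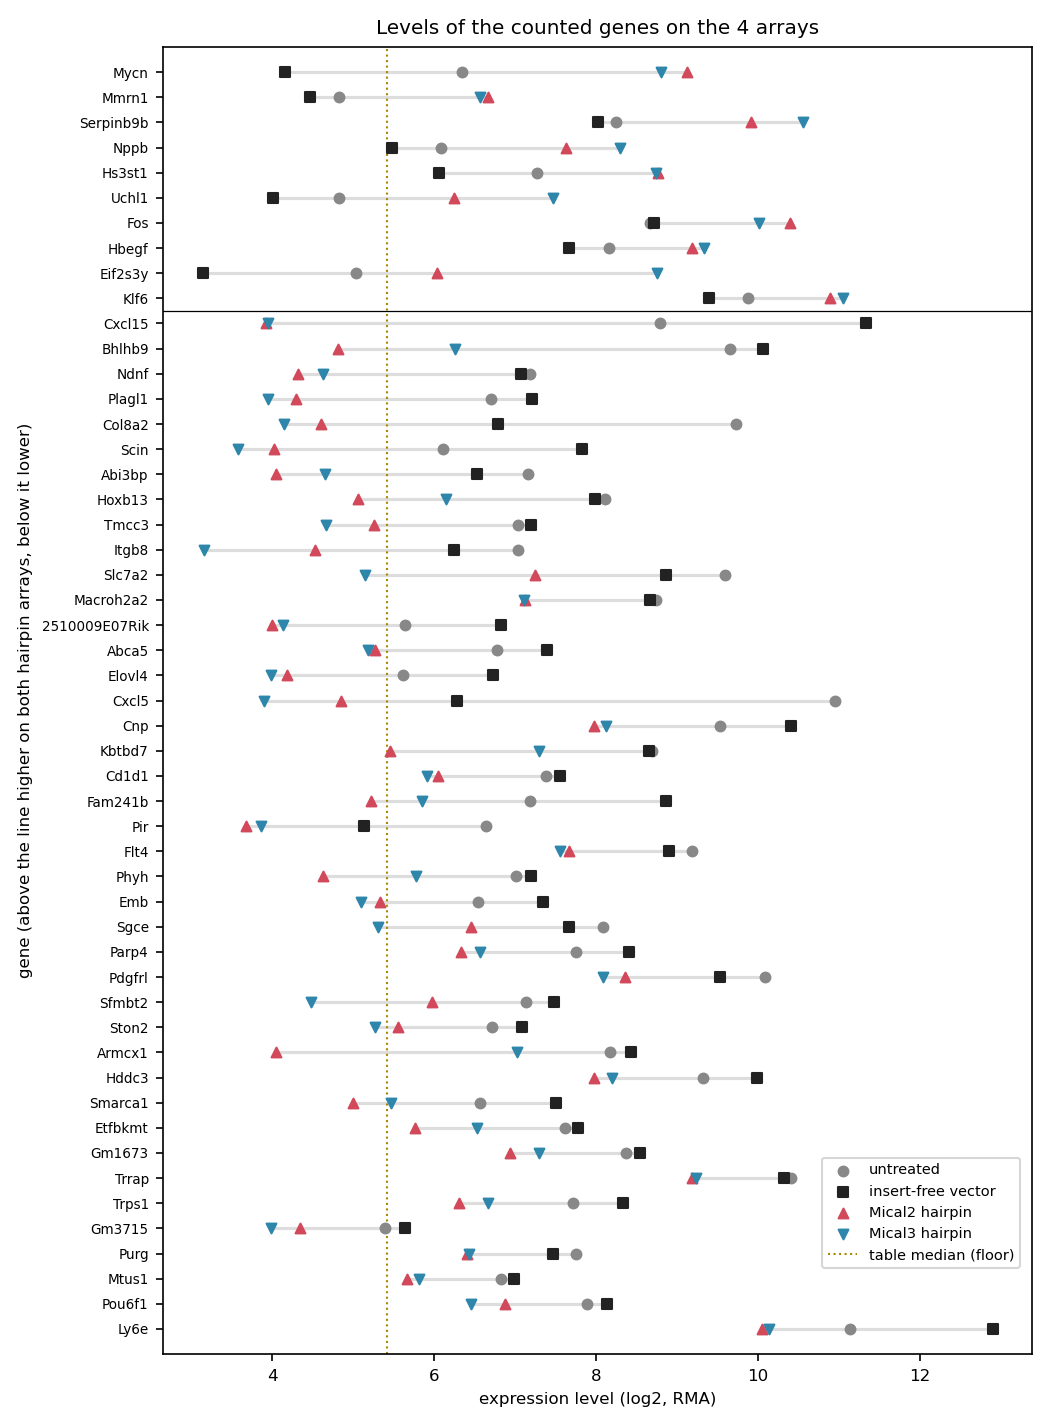
Log2 expression level (horizontal axis) of each of the 51 counted genes on the untreated, vector, Mical2 hairpin and Mical3 hairpin arrays (1 point per array, no replicates), with the 10 higher genes above the line and the 41 lower genes under it. The gap between the nearest hairpin and control points is at least 1 in every case, and the dotted line is the floor of 5.41.

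Of the 10 higher genes, the transcription factors and a growth factor ligand are described first. Mycn, a MYC family transcription factor, read 6.34 and 4.16 on the controls and 9.12 and 8.80 on the hairpin arrays. It had the widest gap of the 10, at 2.46, or 5.5-fold, and its side means differed by 3.71 (SE 0.77, limma, 2 arrays a side). Both hairpin levels were high and close together, while the controls lay far apart, the vector array lower. The other 2 Mycn probe sets showed far less, with 5.97 and 5.95 against 6.21 and 6.12, and 6.48 and 6.58 against 6.74 and 6.69. They kept the order of the sides but not the size.

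Fos, a subunit of the AP-1 transcription factor and an immediate early gene, read 8.67 and 8.71 on the controls and 10.40 and 10.01 on the hairpin arrays. The controls were nearly equal for this gene, and the difference of side means was 1.52 (SE 0.21). Klf6, a zinc finger factor of the early response, read 9.88 and 9.39 against 10.89 and 11.05. Its gap of 1.01 was just past the rule. All 4 other Klf6 probe sets kept the hairpin arrays above the controls, by gaps from 0.69 to 0.95, for example 9.45 and 9.14 against 10.40 and 10.75. Hbegf, a membrane-bound ligand of the EGF receptor that is shed to activate ERK signalling, read 8.16 and 7.67 against 9.19 and 9.34. Its second probe set read 7.71 and 7.42 against 8.41 and 8.55, the same order with a gap of 0.70.

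Nppb, which encodes the natriuretic peptide BNP, read 6.08 and 5.48 on the controls and 7.63 and 8.29 on the hairpin arrays, a gap of 1.55. Hs3st1, an enzyme that adds the sulfate that lets heparan sulfate bind antithrombin, read 7.27 and 6.06 against 8.77 and 8.74. The hairpin levels of Hs3st1 were 0.03 apart and its control levels 1.21 apart. Mmrn1, a secreted multimerin of platelets and endothelium and a marker of lymphatic vessels, read 4.82 and 4.47 against 6.67 and 6.56. Its controls were below the floor, and its hairpin levels above it. Another probe set of Mmrn1, below the floor on every array, did not show the separation.

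Serpinb9b, a relative of the granzyme inhibitor Serpinb9, read 8.25 and 8.03 on the controls and 9.91 and 10.56 on the hairpin arrays, a difference of side means of 2.10 (SE 0.28). Uchl1, a ubiquitin hydrolase best known from neurons, read 4.82 and 4.01 against 6.24 and 7.47. Eif2s3y, the Y-linked copy of a subunit of translation initiation factor eIF2, read 5.03 and 3.14 against 6.04 and 8.75. Eif2s3y was the least even of the higher genes: the array labelled Mical3 stood 2.71 above the array labelled Mical2, and its gap of 1.01 rested on the untreated level. Kdm5d, the next measured gene beside it on the Y chromosome, read 4.18 and 3.54 against 4.51 and 7.15, so there too the array labelled Mical3 was the high one.

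Of the 41 lower genes, the secreted signals and a receptor are described first. Cxcl15, a chemokine that attracts neutrophils and is best known from lung, read 8.79 and 11.34 on the controls but 3.92 and 3.94 on the hairpin arrays. The gap of 4.85, the widest of the 51, corresponds to 28.8-fold, and both hairpin levels lay below the floor, where differences in microarray signal are compressed. The side means differed by -6.14 (SE 0.88). The second Cxcl15 probe set read 6.67 and 9.20 against 4.67 and 4.67, with the vector array again the highest. Cxcl5, another neutrophil chemokine, read 10.95 and 6.28 against 4.85 and 3.89. Its controls were 4.67 apart, with the untreated array high, and the gap of 1.43 was set by the vector array. The 2 chemokines therefore had opposite orders of the controls. Of the 25 listed chemokines and cytokines at the floor, 3 had the hairpin arrays above both controls and 4 below, which is 12% and 16%, against 17.6% and 21.2% of all genes. The median difference of the list was 0.04.

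Ndnf, a secreted neurotrophic factor with fibronectin type domains, read 7.18 and 7.07 on the controls and 4.31 and 4.62 on the hairpin arrays. Its controls were nearly equal, and both hairpin levels were below the floor. Flt4, the receptor VEGFR3 for the lymphatic growth factors VEGF-C and VEGF-D, read 9.18 and 8.90 against 7.66 and 7.55. All 4 Flt4 levels were above the floor, with a difference of side means of -1.44 (SE 0.19). Its second probe set read 6.57 and 6.43 against 6.04 and 6.15, the same order with a smaller gap of 0.28. Of the 6 lymphatic genes at the floor, Mmrn1 was counted higher and Flt4 lower, so these markers did not move one way. Among 33 angiogenic factors and receptors, 5 (15.2%) had the hairpin arrays above both controls and 3 (9.09%) below, against 17.6% and 21.2% of all genes. Flt4 was the counted one.

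The counted lower genes that encode matrix or adhesion proteins are given next. The listed extracellular matrix genes did not lean lower: of 62 at the floor, 11 (17.7%) had the hairpin arrays above both controls and 6 (9.68%) below, with 0 list members counted. Col8a2, a short-chain collagen of basement membranes, read 9.73 and 6.79 on the controls and 4.60 and 4.14 on the hairpin arrays. Its untreated level stood well above the vector level, and the gap was 2.19. Abi3bp, a matrix protein, read 7.16 and 6.53 against 4.04 and 4.65, through a probe set open to cross-hybridisation. Without such probe sets its gap was 0.48, read from a probe set below the floor on every array. Itgb8, the integrin subunit whose heterodimer with alpha-v binds latent TGF-beta, read 7.03 and 6.25 against 4.53 and 3.15. Of 26 integrin and focal adhesion genes, 10 had the hairpin arrays above both controls (38.5%) and 3 below (11.5%), so Itgb8 lay opposite to most of the separated members. Sgce, epsilon-sarcoglycan of the dystrophin complex, read 8.09 and 7.66 against 6.46 and 5.30, and Emb, the adhesion glycoprotein embigin that accompanies lactate transporters, 6.54 and 7.34 against 5.33 and 5.09.

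Scin is the actin gene with the widest gap. It encodes adseverin, a calcium-dependent protein that severs and caps actin filaments, and read 6.11 and 7.83 on the controls and 4.02 and 3.57 on the hairpin arrays. Of 51 actin assembly and turnover genes at the floor, 16 (31.4%) had the hairpin arrays above both controls and 7 (13.7%) below, against 17.6% and 21.2% of all genes. Ezr, which links actin to the membrane, read 12.51 and 11.67 against 12.62 and 13.44, and Coro1c 9.66 and 8.77 against 10.01 and 10.35. In both genes, which did not reach the gap of 1, the array labelled Mical3 was the highest of the 4.

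SRF and MRTF target genes had 13 of 34 members (38.2%) with the hairpin arrays above both controls and 1 (2.94%) below, but none reached the gap of 1. The list's median difference was 0.45, against -0.03 over all genes at the floor. Tagln, the smooth muscle protein SM22, read 10.27 and 6.47 on the controls and 11.16 and 13.45 on the hairpin arrays. Acta2, smooth muscle actin, read 13.67 and 11.61 against 13.80 and 14.49, and Ccn2, a matricellular growth factor, 12.78 and 10.54 against 13.10 and 13.59. In all 3 the vector array was by far the lowest, and the array labelled Mical2 was within 0.9 of the untreated array. Only 5 of the 34 list members were higher on the vector array than on the untreated array, and the list's median difference of vector from untreated was -0.48. Summed untransformed levels of the fibroblast and mural cell markers, a list that also holds Acta2, were 94206.8 untreated, 42819.5 with the vector, 99944.9 with the Mical2 label and 66901.5 with the Mical3 label. Such a sum is led by its brightest genes, among them S100a4 and Vim, and hides unlike markers. Col1a2 read 14.49 and 11.64 on the controls and 14.06 and 6.19 on the hairpin arrays. Pdgfrb read 10.28 and 8.13 against 10.71 and 3.55, so both were lowest on the array labelled Mical3. Dcn, at 12.36 and 10.52 against 12.27 and 12.79, was highest there. Of the 24 markers, 8 lay below the floor on every array. Their part in the SRF values was not tested.

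ERK feedback genes, which respond to growth factor signalling and damp it, had 11 of 25 members (44%) with the hairpin arrays above both controls and 0 below, and a median difference of 0.60. Hbegf was the counted one. Dusp1, a phosphatase of MAP kinases, read 9.57 and 8.92 on the controls and 10.32 and 12.21 on the hairpin arrays. Dusp6, which acts on ERK, read 10.26 and 9.64 against 10.78 and 11.60, and the factor Etv4 6.05 and 5.66 against 6.27 and 7.80. The array labelled Mical3 was the highest for these 3 genes. Of 28 AP-1 and immediate early genes, 8 (28.6%) had the hairpin arrays above both controls and 2 (7.14%) below, with Fos and Klf6 counted. Klf2, a flow-induced endothelial factor, read 6.95 and 7.39 against 8.56 and 8.11, a gap of 0.72. The median difference of that list was 0.11.

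Armadillo-repeat genes of the X chromosome had 2 counted members, both lower. Bhlhb9, also known as Gprasp3, read 9.65 and 10.06 on the controls and 4.81 and 6.26 on the hairpin arrays, a gap of 3.39, or 10.5-fold. Armcx1, a mitochondrial outer membrane protein involved in mitochondrial transport, read 8.17 and 8.43 against 4.04 and 7.02. Its hairpin levels were 2.98 apart, the widest such spread of the 51, with the array labelled Mical2 low. All 7 family members at the floor had both hairpin arrays below both controls (100%, against 21.2% of all genes), with a median difference of -0.67. Armcx3 read 10.87 and 11.31 against 10.23 and 10.17, and Armcx2 12.37 and 12.24 against 11.74 and 11.54. The gaps of the other 3 were between 0.02 for Armcx5 and 0.27 for Gprasp1. This family was chosen as a list with its values in these data known, so the count of 7 supports nothing further.

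**Figure D2:**
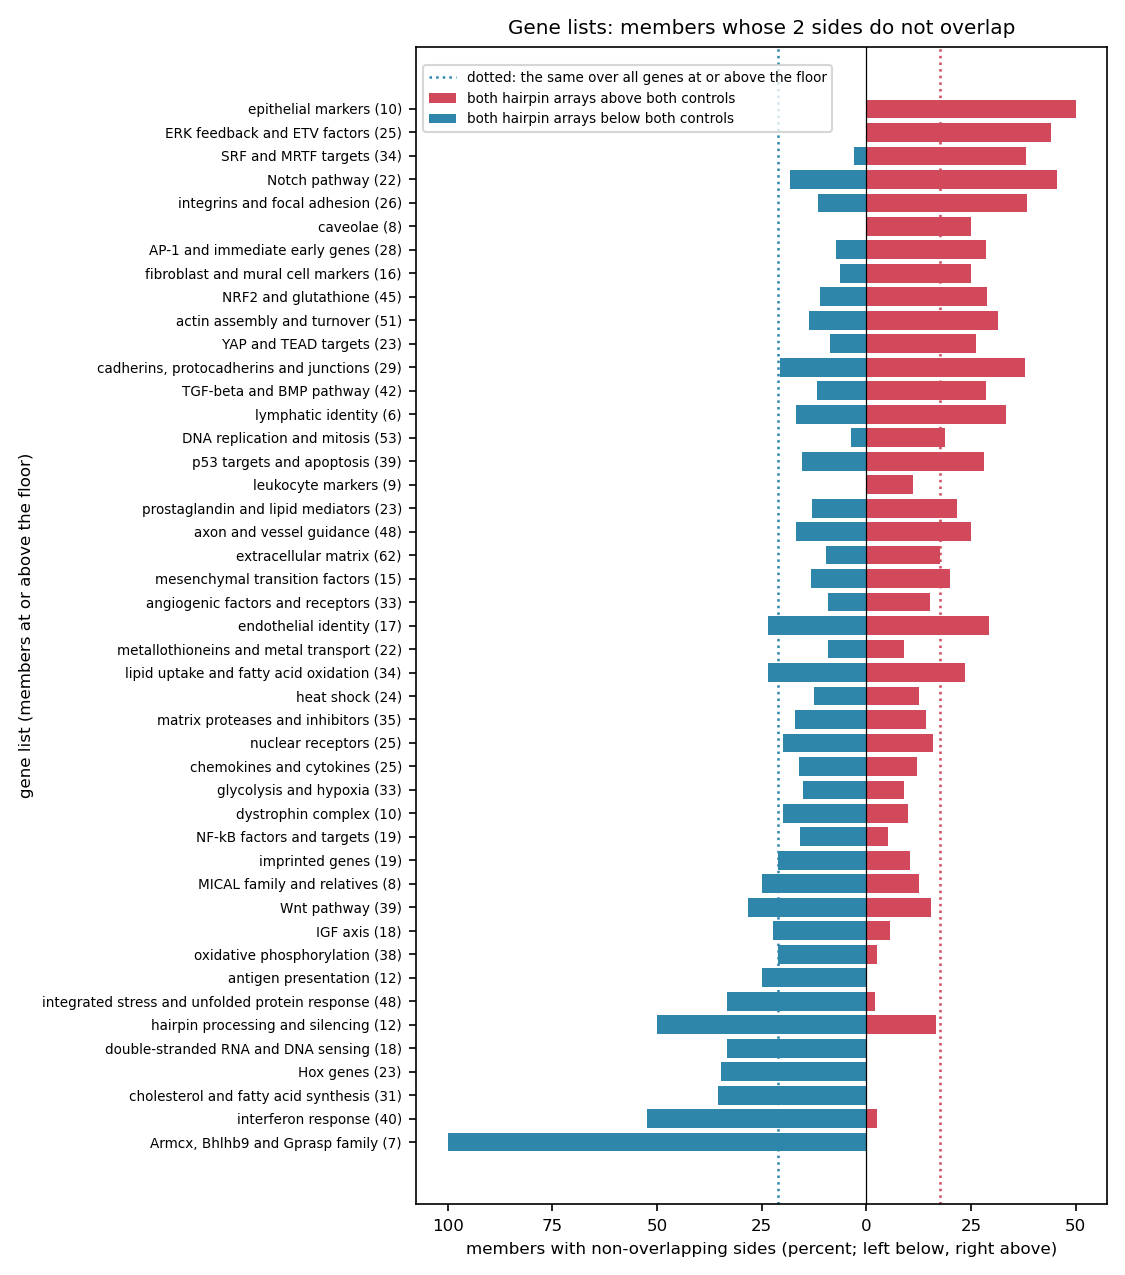
Percent of each gene list's members at or above the floor whose 2 hairpin levels both lie above (right) or both below (left) the 2 control levels by any amount, for 45 lists with their member number in parentheses. Dotted lines give the same percentages over all 12166 genes, 17.6% above and 21.2% below; the Armcx family bar reaches 100% below and the epithelial marker bar 50% above.

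Lower transcription and chromatin genes included a Hox gene and an imprinted gene. Hoxb13, a posterior Hox factor, read 8.11 and 7.99 on the controls and 5.06 and 6.14 on the hairpin arrays. Of 23 Hox genes at the floor, 0 had the hairpin arrays above both controls and 8 (34.8%) below, with a median difference of -0.28. Hoxd9 read 7.99 and 8.15 against 7.29 and 6.23, a gap of 0.70. Ttll6, a measured neighbour of Hoxb13 in the gene order, read 6.21 and 6.37 against 6.59 and 6.34, so its sides overlapped. Hoxb9, the measured neighbour on the other side, read 7.45 and 7.62 against 6.76 and 7.27. Thus Hoxb13 was the only Hox gene past the gap of 1 in this table.

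Plagl1, an imprinted zinc finger factor, read 6.70 and 7.21 against 4.29 and 3.94, but through a probe set open to cross-hybridisation. Without such probe sets its gap was 0. Its other probe sets lay below the floor on every array, so they cannot decide the reading. Macroh2a2, a histone H2A variant of silent chromatin, read 8.74 and 8.67 against 7.12 and 7.11. Its levels were 0.07 apart on the controls and 0.01 apart on the hairpin arrays, but its only probe set is also open to cross-hybridisation. Trrap, the scaffold of histone acetyltransferase complexes, read 10.41 and 10.32 against 9.19 and 9.24, which made it 1 of the 2 brightest genes among the lower members on the hairpin arrays. Sfmbt2, a Polycomb-related protein, Smarca1, an ISWI chromatin remodeller, and Trps1, a GATA-type repressor, had gaps of 1.16, 1.10 and 1.06. Pou6f1, a POU homeodomain factor, read 7.89 and 8.13 against 6.88 and 6.45, and Purg, a single-stranded nucleic acid binding protein, 7.75 and 7.47 against 6.41 and 6.43. Both stood just inside the rule.

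Counted lower genes with roles in transport, lipid handling and membranes follow. Of the listed genes for lipid uptake and fatty acid oxidation, 34 at the floor, 8 (23.5%) had the hairpin arrays above both controls and 8 (23.5%) below. The shares over all genes were 17.6% and 21.2%, and 0 list members were counted. Slc7a2, a transporter of arginine and other cationic amino acids, read 9.59 and 8.87 on the controls and 7.25 and 5.15 on the hairpin arrays. Abca5, a lysosomal ABC transporter, read 6.78 and 7.39 against 5.27 and 5.18, and Elovl4, an elongase of very long fatty acids, 5.62 and 6.73 against 4.18 and 3.98. Phyh, the peroxisomal enzyme that starts phytanic acid breakdown, read 7.01 and 7.19 against 4.63 and 5.78. The array labelled Mical2 was the lowest for Phyh, and the array labelled Mical3 for Slc7a2. A second Slc7a2 probe set at the floor read 6.25 and 5.35 against 4.53 and 4.18, the same order with a gap of 0.82.

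Cnp, a myelin phosphodiesterase, read 9.53 and 10.41 against 7.97 and 8.12, through a probe set open to cross-hybridisation. Without such probe sets its gap was 0.39, and a further probe set at the floor kept the same order with a gap of 0.72. Tmcc3, a coiled-coil protein of the endoplasmic reticulum, read 7.04 and 7.20 against 5.26 and 4.66. Kbtbd7, an adaptor of a Cul3 ubiquitin ligase, read 8.69 and 8.65 against 5.45 and 7.29. A second Kbtbd7 probe set gave 5.97 and 6.09 against 3.54 and 4.19, so both probe sets passed the gap of 1. Fam241b read 7.18 and 8.86 against 5.22 and 5.85, and Pir, the iron-binding nuclear protein pirin, 6.64 and 5.13 against 3.67 and 3.86.

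Immune surface genes among the lower members were Cd1d1, which presents lipid antigens to NKT cells, and Ly6e, an interferon-inducible surface protein. Cd1d1 read 7.38 and 7.56 on the controls and 6.05 and 5.91 on the hairpin arrays. Ly6e read 11.14 and 12.90 against 10.05 and 10.14, exactly at the required gap, with the vector array highest. Without probe sets open to cross-hybridisation its gap was 0.67. Of the 8 members read by such probe sets, Kbtbd7, Cd1d1 and Mtus1 stayed counted without them. Parp4, the ADP-ribosylating enzyme of vault particles, read 7.75 and 8.41 against 6.33 and 6.57.

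None of the 40 listed interferon response genes was counted, but 21 of them (52.5%) had the hairpin arrays below both controls and 1 (2.5%) above. The list's median difference was -0.83. Igtp, an interferon-induced GTPase, read 9.91 and 11.58 on the controls and 8.58 and 9.26 on the hairpin arrays, and Ifi47 9.78 and 10.13 against 8.06 and 9.07. Parp14 read 8.91 and 10.05 against 7.56 and 8.61, and Isg20, an exonuclease, 11.37 and 12.56 against 9.99 and 11.18. On these 4 genes the vector array was the highest and the array labelled Mical2 the lowest. All 40 members were higher on the vector array than on the untreated array, with a median of 0.99. Of 18 sensors of double-stranded RNA and DNA, 0 had the hairpin arrays above both controls and 6 (33.3%) below, with a median of -0.51. Here too 17 of the 18 were higher on the vector array than on the untreated array, with a median of 0.8. Tlr3, the endosomal sensor of double-stranded RNA, read 7.5 and 8.65 against 6.39 and 7.21, and Irf3 9.31 and 9.66 against 8.75 and 8.76.

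The genes that process hairpins and carry out silencing are read here because both hairpin arrays draw on them. None of the 12 at the floor was counted, 6 (50%) had the hairpin arrays below both controls and 2 (16.7%) above. Over all genes the shares were 21.2% below and 17.6% above. Ago1, an Argonaute protein, read 9.43 and 9.38 on the controls and 7.37 and 8.54 on the hairpin arrays, a gap of 0.84. Ago3 read 7.31 and 7.55 against 6.53 and 6.39, but another of its probe sets read 6.54 and 6.06 against 7.13 and 6.94, the opposite order. Tnrc6b, the partner of Argonaute in silencing, read 8.92 and 9.03 against 8.21 and 7.88, and its 2 other probe sets at the floor gave 8.68 and 8.76 against 8.04 and 7.98, and 8.02 and 8.25 against 7.52 and 7.22. All 3 thus kept the same order. Tarbp2, the partner of Dicer, read 9.47 and 8.98 against 9.71 and 9.74.

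Several metabolic and stress lists had no counted member. Of 31 cholesterol and fatty acid synthesis genes, 11 (35.5%) had the hairpin arrays below both controls and 0 above, with a median difference of -0.10. Only 4 of the 31 were higher on the vector array than on the untreated array. The list's median difference of vector from untreated was -0.65, larger in size than that between the sides. The desaturase Scd2 read 13.42 and 13.41 against 12.53 and 12.59, a gap of 0.82. Acss2, which makes acetyl-CoA from acetate, read 7.59 and 8.45 against 6.83 and 6.86. Its vector level was the higher control, unlike most of the list. Of 48 genes of the integrated stress and unfolded protein responses, 16 (33.3%) were below and 1 (2.08%) above. Trib3, a target of that response, read 10.06 and 12.12 against 9.88 and 9.89, so its vector array stood apart and the other 3 arrays lay within 0.2.

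Among 53 DNA replication and mitosis genes, 10 (18.9%) had the hairpin arrays above both controls and 2 (3.77%) below, with a median of 0.10. All genes gave 17.6% above and 21.2% below, so the share above was near that of all genes. Cenpa, the centromeric histone, read 12.09 and 11.22 on the controls and 12.31 and 12.15 on the hairpin arrays. Of 22 Notch pathway genes, 10 (45.5%) were above and 4 (18.2%) below. Hes1, a Notch target, read 8.41 and 7.73 against 8.44 and 8.72, and Notch2 10.26 and 10.99 against 9.99 and 10.08. Of 10 epithelial markers at the floor, 5 (50%) were above and 0 below. Krt14 read 6.07 and 5.11 against 7.28 and 7.0, and Krt18 5.85 and 4.84 against 6.63 and 7.41, gaps of 0.93 and 0.78. The remaining separated markers were Cldn3, Krt5 and Krt8, with gaps of only 0.02, 0.03 and 0.05. Only 2 of the 10 were higher on the vector array than on the untreated array. The summed untransformed levels of the epithelial list were 1151.9 untreated, 721.9 with the vector, 1307.6 with the Mical2 label and 1430.5 with the Mical3 label. Its part in the counted genes was not tested.

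The values at the edge of the rule were as follows. Klf6 and Eif2s3y entered with a gap of 1.01, and Hbegf with 1.03. Just outside were the guidance ligand Sema6d (7.04 and 5.31 against 8.02 and 8.83, gap 0.98), the protease Ctsf (0.97), Ms4a4d (0.95) and Csgalnact1 (0.93). On the lower side Ly6e, Pou6f1, Mtus1 and Purg entered with gaps of 1.0, 1.01, 1.02 and 1.04. Just outside were the endothelin-converting enzyme Ece1 (8.69 and 9.19 against 7.56 and 7.70) and Ppm1e, both with a gap of 0.99, and Clu and Man2a2, both with 0.97. The remaining lower members, named to account for all 41, were the endocytic adaptor Ston2, the hydrolase Hddc3, the mitochondrial lysine methyltransferase Etfbkmt and the predicted genes 2510009E07Rik, Gm1673 and Gm3715. Their gaps ran from 1.05 for Gm3715 to 1.51 for 2510009E07Rik.

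**Figure D3:**
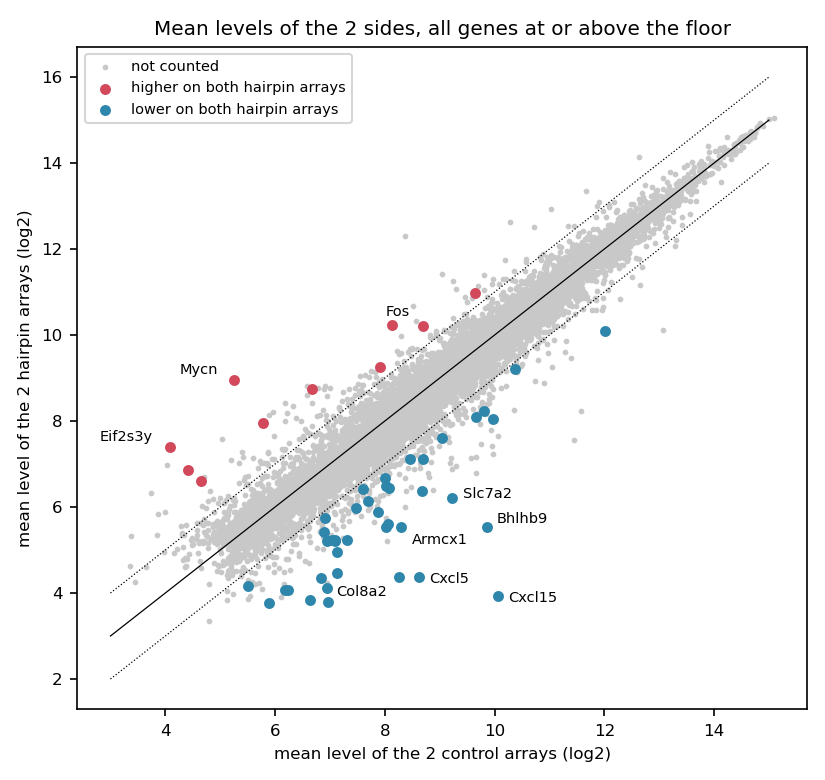
Mean log2 level of the 2 hairpin arrays (vertical axis) against the mean of the 2 control arrays (horizontal axis) for the 12166 genes at or above the floor, with the 10 higher and 41 lower genes coloured, the solid line at equal means and the dotted lines at a difference of 1. Grey points outside the dotted lines are genes whose means differ by more than 1 but whose nearest hairpin and control levels do not, and Cxcl15 lies farthest below the line among the counted genes.

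Taken as a group, the higher members had a median difference of side means of 2.09 and the lower members of -1.93, against -0.03 over all 12166 genes; the rule fixed these directions. The levels on the 2 hairpin arrays differed by a median of 0.36 for the higher and 0.35 for the lower members, against 0.26 over all genes. The controls differed by a median of 0.55 and 0.51, against 0.24. Within the lower group 26 of 41 members (63.4%) were higher on the vector array than on the untreated array, against 53.4% of all genes, and within the higher group 1 of 10. Of the 41 lower genes 15 were below the floor on both hairpin arrays, so their differences are limited by background, and 3 of the 10 higher genes were below it on both controls. The array labelled Mical2 was the higher of the hairpin pair for 4 of the 10 higher and 19 of the 41 lower members.

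With 2 arrays against 2 arrays, an exact two-sided permutation test of 1 gene cannot give a p under 0.333. A limma fit of the side difference over all 12166 genes gave 0 genes with an adjusted p under 0.05 (0%), and 740 genes, 6.08%, with an unadjusted p under 0.05. The smallest adjusted p in limma was 0.742, and all 51 counted genes had this value. Of the 51, 49 had an unadjusted limma p under 0.05, a count that the choice of members by separated sides fixes in part and that supports nothing. The exceptions were Armcx1 and Cxcl5, which had wide spreads within a side. The spread in this fit holds the difference between hairpins and between controls, not that between cultures.

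Other probe sets of the same genes read other parts of the transcripts on the same arrays, and the rule did not use them. Of the 51 genes 30 had at least 1, 46 probe sets in all. At or above the floor were 26 of them, in 19 genes. All 26 differed in the same direction as the counted probe set, 25 kept both hairpin arrays on the same side of both controls, and 7 in 6 genes also passed the gap of 1. These genes were Cd1d1, Cxcl15, Kbtbd7, Mtus1, Parp4 and Trps1, all lower. The exception in order was Etfbkmt, at 6.43 and 6.39 on the controls and 5.10 and 6.73 on the hairpin arrays. None of the 7 other probe sets of higher genes at the floor passed the gap. Of the 20 below the floor, 11 had the same sign and 7 the same separation. The floor is met by the highest of the 4 levels, so this filter itself favours separated sides. Probe sets such as those of Cxcl15 and Kbtbd7 met it on the control arrays only. The agreement among the 26 is therefore fixed in part by the filter. Over all 46, 37 had the same sign and 32 the same separation. These probe sets share RNA and array with the counted ones, so they bear on the reading of a gene and not on the spread between cultures.

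**Figure D4:**
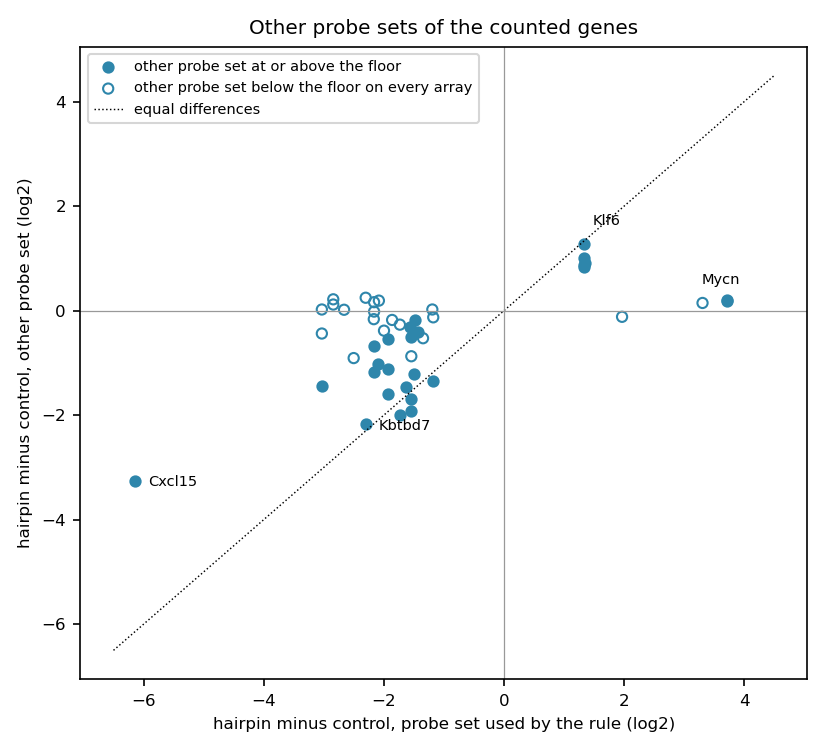
Difference of side means (hairpin minus control, log2) of each of 46 other probe sets of the counted genes (vertical axis) against that of the probe set used by the rule (horizontal axis); filled points reach the floor on some array, open points do not, and the dotted line marks equal differences. All 26 filled points lie in the quadrants of equal sign, most of them nearer to 0 than the counted probe set, with both Mycn points close to 0.

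In the RefSeq gene order, 3 of the lower members are neighbours: Slc7a2, Pdgfrl and Mtus1. Pdgfrl, a secreted protein related to the PDGF receptor, read 10.09 and 9.53 on the controls and 8.36 and 8.09 on the hairpin arrays. Mtus1, a microtubule-associated protein, read 6.83 and 6.99 against 5.66 and 5.81. On the Mtus1 side, Fgl1 read 5.0 and 5.44 against 5.09 and 4.80, and Pcm1 9.11 and 9.11 against 8.92 and 9.11, so their sides overlapped. Asah1, beyond Pcm1, read 11.03 and 11.7 against 10.59 and 10.95, with both hairpin arrays below both controls by a gap of 0.08. On the other side Adam25, Adam24 and Mtmr7 were below the floor on every array, and Vps37a read 8.72 and 8.97 against 8.66 and 8.82. None of these flanking genes passed the gap of 1.

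Leaving out neighbours that were themselves counted, which lay only in that stretch, 46 measured genes at the floor stood next to lower members. In 15 of them (32.6%) both hairpin arrays were below both controls, against 21.2% of all genes. Beside the higher members, 3 of 13 such neighbours (23.1%) had both hairpin arrays above both controls, against 17.6% of all genes, and 0 were counted. Man2a2, beside Hddc3, had a gap of 0.97, and Senp7, beside Abi3bp, one of 0.95, both lower. No test was run on these shares.

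**Figure D5:**
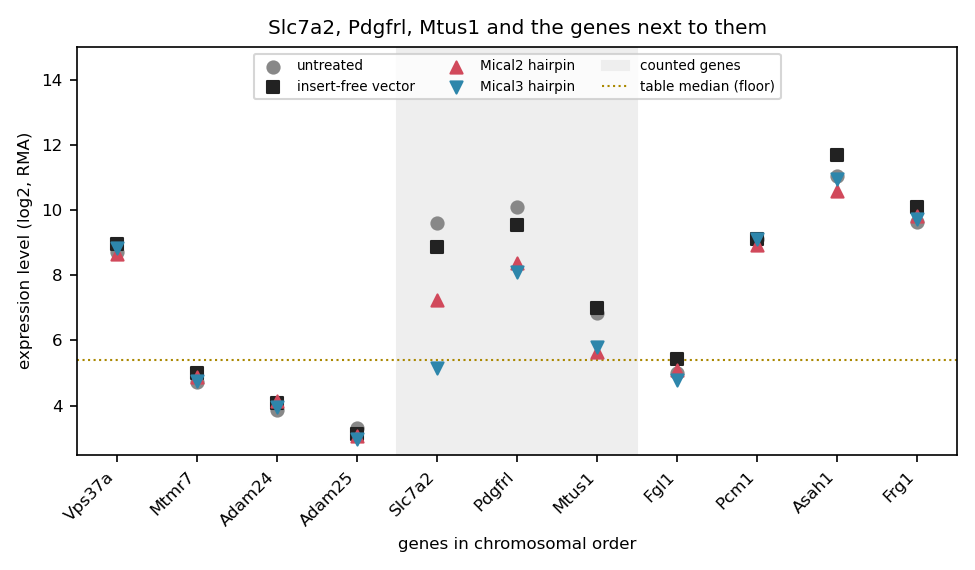
Log2 level on each of the 4 arrays (1 point per array) for Slc7a2, Pdgfrl and Mtus1 (shaded) and the measured genes around them, in RefSeq gene order with equal spacing; the dotted line is the floor of 5.41. In the shaded genes both hairpin points lie at least 1 below both control points, and at Vps37a, Fgl1 and Pcm1 the hairpin and control points overlap.

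Promoter sequence, taken as 250 bases before to 50 after the gene start, was matched in the RefSeq table of assembly GRCm38.p6 for 37 of the 51 members, 9 higher and 28 lower. Over both strands, the TATA box letters TATAAA occurred in 3 of the 9 higher promoters (33.3%), those of Eif2s3y, Fos and Nppb. They occurred in 2 of the 28 lower promoters (7.14%), those of Cxcl15 and Tmcc3, and in 8.78% of the 9829 promoters of genes at the floor. The promoters of Fos, Nppb and Cxcl15 are printed because these counted genes hold the letters shortly before the gene start. Capitals mark matches to TATAAA and, in Fos, to the GC box GGGCGG read on the reverse strand.
Fos, chr12:85473640-85473939, plus strand: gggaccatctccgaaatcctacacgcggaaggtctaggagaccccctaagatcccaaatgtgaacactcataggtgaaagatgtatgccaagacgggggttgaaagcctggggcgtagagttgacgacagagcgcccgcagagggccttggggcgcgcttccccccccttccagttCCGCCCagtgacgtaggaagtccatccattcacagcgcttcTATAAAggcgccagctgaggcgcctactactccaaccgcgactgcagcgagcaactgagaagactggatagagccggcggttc
Nppb, chr4:147985650-147985949, plus strand: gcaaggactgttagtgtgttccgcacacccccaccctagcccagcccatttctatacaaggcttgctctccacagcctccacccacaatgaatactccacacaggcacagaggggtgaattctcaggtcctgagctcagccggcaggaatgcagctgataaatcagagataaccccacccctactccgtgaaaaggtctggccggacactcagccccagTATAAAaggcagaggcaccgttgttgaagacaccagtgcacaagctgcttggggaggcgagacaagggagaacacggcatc
Cxcl15, chr5:90794284-90794583, plus strand: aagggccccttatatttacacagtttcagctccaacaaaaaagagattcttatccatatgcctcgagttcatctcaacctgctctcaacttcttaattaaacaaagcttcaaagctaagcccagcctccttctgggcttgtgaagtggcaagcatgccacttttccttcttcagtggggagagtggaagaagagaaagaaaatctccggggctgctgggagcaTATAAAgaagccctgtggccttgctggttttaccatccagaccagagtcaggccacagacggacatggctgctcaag
The GC box letters occurred in 44.4% of the higher, 64.3% of the lower and 68% of all promoters. The AP-1 letters TGANTCA occurred in 0 of 9, in 3 of 28 (10.7%) and in 6.25%, and the interferon response letters GAAANNGAA in 11.1%, 10.7% and 8.08%. The antioxidant response letters TGACNNNGC were in 22.2%, 14.3% and 16.6%, the E-box CACGTG in 11.1%, 10.7% and 11.6%, and the CRE TGACGTCA in 0, 0 and 3.46%. Median GC content was 55.7% in the higher, 59.7% in the lower and 60.7% in all promoters. A match is a description of these letters only, and with 9 and 28 promoters a single gene moves a share by several percent.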

How the data were processed

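Total RNA of 4 groups of SVEC4-10 cells was hybridised as biotin-labelled complementary RNA, 1 array per group, each from a pool of 3 biological replicates, per the labels. The authors deposited a log2 expression level for each probe set on each array, made with RMA (background correction, quantile normalization, summary of probes) per the submitters' processing notes. The settings of RMA were not given in the sources used here. These values were used without further scaling. Of 45101 probe sets, 64 are controls of the manufacturer and 34945 have 1 symbol, of which 34741 matched a RefSeq gene table of GRCm38.p6.

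The members, the 45 gene lists and the alternatives were chosen with earlier results of these data known. Named were the first 25 genes in each direction by gap, up to 4 separated members per list with the largest difference, every counted list member, counted neighbours, and the 4 genes just inside and outside the rule; predicted genes were skipped, and the other members are named to account for them. Not every list gene that this rule allows is printed. Gene lists were described by counts and medians, with no test. The side difference was fitted with limma over all genes at the floor, with Benjamini-Hochberg adjustment, which pools the spread within both sides. Both procedures were tested on simulated data. Alternatives covered the fold, the floor, the choice of probe set, the normalization, 16 added on the linear scale, the mean of each side and leaving out each array. The tools were limma 3.58.1 in R 4.3.3, and Python 3.11.15 with statsmodels 0.14.6, pandas 2.3.3, numpy 2.4.6 and matplotlib 3.10.9.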

Additional observations from a re-analysis of the deposited data

How the results depend on the processing

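Against 10 higher and 41 lower genes, a 1.5-fold gap gave 67 and 182, and a 3-fold gap 3 and 11. Side means at least 1 apart, without the demand for a gap, gave 178 and 338. Averaging all probe sets per gene gave 5 and 24. The probe set with the highest variance gave 17 higher genes, a floor at the 75th percentile 21 lower genes, and 16 added on the linear scale 27 lower genes. Leaving out 1 array at a time gave 24 to 210 higher and 73 to 389 lower genes: the counts rise since fewer levels must be separated. They were 210 and 389 without the untreated array, 24 and 73 without the vector array, 166 and 299 without the array labelled Mical2, and 118 and 211 without the array labelled Mical3. The rise was thus largest without the untreated array and smallest without the vector array. Since 1 array was left out each time, the number of levels does not account for that contrast. The other alternatives moved neither count by over 1.5 times. No counted gene had its sides separated in the opposite direction. A changed floor or a left-out array could not produce that, so those settings say nothing about direction. Without probe sets open to cross-hybridisation, the gap of Plagl1 fell to 0. limma also gave 0 calls under the alternatives it was run with, which says nothing about stability, since its smallest adjusted p with all arrays was 0.742. Of the 51 genes 15 were counted under every alternative that kept all 4 arrays and the 2-fold gap, 4 of them higher (Fos, Hs3st1, Nppb and Serpinb9b). No paired analysis was possible because each group has 1 array. Levels near background limit the size of a difference.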

Other observations

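Probe sets without a single gene symbol were outside the rule, and they are given here by value with no name. Of 932 probe sets annotated to several symbols, 611 reached the floor, and by the same gap 0 of them were higher and 4 lower. The widest of these read 7.14 and 6.61 on the controls against 3.34 and 3.38 on the hairpin arrays, a gap of 3.23. Another read 9.49 and 9.63 on the controls, 4.94 with the Mical2 label and 8.24 with the Mical3 label, so the hairpin arrays were far apart. Of 9160 probe sets with no symbol, 2234 reached the floor, with 2 higher and 2 lower. The higher ones read 5.75 and 5.79 on the controls against 7.07 and 7.52, and 5.02 and 4.30 against 6.19 and 7.01.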
